A study of Mus musculus with 38 samples.

Results

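Interferon-stimulated genes are the effectors that a cell makes under interferon to block the entry, translation, replication and release of viruses. The genes described here are 45 antiviral members of that programme in the mouse. They were chosen by symbol and family from the 45706 gene identifiers in each of 2 tables of read counts. No measured value entered the rule, but earlier results of these data were known when it was made. They fall into 11 groups by role, from the IFIT, OAS and Mx families to the ISG15 system, PARP, TRIM and Schlafen proteins. Guanylate-binding proteins and immunity-related GTPases were not taken. All 45 were found in both tables and all 45 passed the filter on low counts there, among 13843 genes tested after TNF and 12752 tested after LPS and Poly(I:C).

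Messenger RNA was sequenced from primary embryonic fibroblasts of C57BL/6 mice, either RelA-TA-KI homozygous or wild-type (WT). RelA is a subunit of the transcription factor NF-kB, and the title of the series names transactivation; the labels do not describe the protein that the knock-in allele makes. RelA-TA-KI cells and WT cells were studied untreated and after 0.5, 1, 3 and 8 h of the cytokine TNF (10 ng/ml), with 2 libraries per genotype and time. They were also studied untreated and after 0.5, 1, 3 and 8 h of LPS (100 ng/ml), a bacterial cell wall component, or of Poly(I:C) (20 ug/ml), a synthetic double-stranded RNA, with 1 library per genotype and condition. All cells, untreated ones included, had been starved of serum overnight. The labels do not say whether replicate numbers mark embryos, cultures or days, so p-values measure the spread between these samples, which may be technical. For TNF the WT replicates differed in the sex-linked RNAs Xist and Ddx3y, as given below, so their spread is not technical alone. The RelA-TA-KI replicates did not differ in this way.

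As background, type I interferon binds a receptor on the cell surface whose kinases, Jak1 and Tyk2, activate the transcription factor ISGF3, in which Stat2 and Irf9 take part and which binds interferon-stimulated response elements (ISREs) beside the genes described here. The interferon-beta gene, Ifnb1, is itself switched on by interferon regulatory factors and NF-kB once Toll-like receptors or cytosolic RNA sensors have met LPS or double-stranded RNA. Irf1, which NF-kB induces, can bind similar elements without interferon. Fibroblasts make interferon-beta and respond to it, so the same cells can send and receive the signal.

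The promoters of 5 members are shown because the results turn on these genes and because they differ in the elements they hold. The sequences are RefSeq windows on GRCm38.p6, 250 bases before to 50 bases after the annotated start, written 5′ to 3′ on the strand of the gene. They lie at chr4:156200769-156201068 on the minus strand for Isg15, chr19:34640639-34640938 on the plus strand for Ifit1 and chr12:26456403-26456702 on the minus strand for Rsad2. The windows of Trim21 and Dtx3l lie at chr7:102565433-102565732 and chr16:35938978-35939277, both on the minus strand. Capitals mark matches to the ISRE core (GAAANNGAAA, or TTTCNNTTTC on the other strand) and to a kappaB motif (GGGANNNNCC or GGNNNNTCCC), the element that NF-kB binds.
Isg15: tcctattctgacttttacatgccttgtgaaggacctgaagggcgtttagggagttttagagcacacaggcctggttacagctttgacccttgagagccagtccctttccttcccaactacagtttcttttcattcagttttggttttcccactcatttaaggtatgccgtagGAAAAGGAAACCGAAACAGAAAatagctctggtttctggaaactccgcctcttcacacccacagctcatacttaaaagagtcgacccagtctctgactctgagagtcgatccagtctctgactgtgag
Ifit1: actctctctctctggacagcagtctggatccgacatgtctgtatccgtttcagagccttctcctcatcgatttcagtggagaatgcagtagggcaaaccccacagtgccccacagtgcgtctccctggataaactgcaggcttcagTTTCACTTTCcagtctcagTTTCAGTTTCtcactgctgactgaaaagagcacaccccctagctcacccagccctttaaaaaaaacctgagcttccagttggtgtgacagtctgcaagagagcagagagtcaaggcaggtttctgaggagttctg
Rsad2: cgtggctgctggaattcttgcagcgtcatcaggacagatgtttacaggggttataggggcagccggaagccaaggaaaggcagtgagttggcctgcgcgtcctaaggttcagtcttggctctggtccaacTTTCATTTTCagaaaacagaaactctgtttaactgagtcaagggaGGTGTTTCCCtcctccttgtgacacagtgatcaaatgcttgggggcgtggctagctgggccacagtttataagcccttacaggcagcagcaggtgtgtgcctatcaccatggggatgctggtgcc
Trim21: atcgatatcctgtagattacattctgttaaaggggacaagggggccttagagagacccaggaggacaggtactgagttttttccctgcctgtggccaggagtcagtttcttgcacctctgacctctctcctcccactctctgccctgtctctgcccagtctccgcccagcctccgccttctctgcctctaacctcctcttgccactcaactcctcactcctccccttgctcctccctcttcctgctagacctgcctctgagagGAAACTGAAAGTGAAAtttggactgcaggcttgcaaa
Dtx3l: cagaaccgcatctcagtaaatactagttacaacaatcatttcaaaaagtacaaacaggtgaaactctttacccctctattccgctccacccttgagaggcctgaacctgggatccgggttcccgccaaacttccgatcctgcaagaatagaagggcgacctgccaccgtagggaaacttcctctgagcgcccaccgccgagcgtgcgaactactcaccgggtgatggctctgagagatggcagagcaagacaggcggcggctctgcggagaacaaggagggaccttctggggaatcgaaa
Isg15 held 3 ISRE cores that overlap in 1 run, with first bases at -78, -72 and -66 from the start. Ifit1 held ISRE cores at -104 and -85, Rsad2 an ISRE core at -120 and a kappaB motif at -75, and Trim21 overlapping ISRE cores at 13 and 19 bases after the start. Dtx3l held no match in this window. Of the 33 members with a window in the table, 16 held an ISRE core (48.5%), against 3.99% of 27025 genes with windows of the same length. A kappaB motif was found in 9 of the 33 (27.3%, against 22.9% of all genes) and a GAS motif (TTCNNNGAA) in 6 (18.2%, against 9.55%). A match is a run of letters and not a measured site, and the 12 other members are not covered by this count. Of the 7 genes with a called difference in their TNF response, described below, Trim21 and Ifitm3 held an ISRE core, Ifitm3 and Ifit2 held a kappaB and a GAS motif, Dtx3l, Samd9l and Herc6 held none of these, and Parp9 was not covered.

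Total counts per library ranged over 6715022 to 9590932 in the TNF table and 7021799 to 9431334 in the table of LPS and Poly(I:C). Levels below are CPM, counts scaled to a common library total, with each library total first multiplied by its TMM scaling factor. These factors ran from 0.719 to 1.18 over both tables, and the tests and ratios used them too. In the TNF table the RelA-TA-KI libraries and the WT replicate 1 libraries had Xist (336.8 to 516.7 CPM) and almost no Ddx3y, while the WT replicate 2 libraries had Ddx3y (128 to 160.1 CPM) and Xist at or below 3.89 CPM. In the other table RelA-TA-KI libraries had Xist at or below 1.48 CPM and WT libraries had both RNAs, so sex and genotype cannot be told apart there. The 15 macrophage markers were all above 0 in every library. Their summed level ranged over 1160 to 4336 CPM in RelA-TA-KI and 1042 to 2197 CPM in WT libraries of the TNF table, and over 3458 to 5793 CPM and 4269.8 to 5699.5 CPM in the other. The 10 fibroblast markers summed to 44552 to 52407 CPM in RelA-TA-KI and 35424 to 47972 CPM in WT libraries of the TNF table.

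TNF raised most of these genes in WT cells, but late, and fewer of them passed the test in RelA-TA-KI cells. The counts here come from the fit that leaves replicate numbers out. The gap between the genotypes was narrower with those numbers in the fit, as given below. At 8 h, 17 of the 45 genes had risen in RelA-TA-KI cells and 38 in WT cells, and none had fallen in either (edgeR quasi-likelihood test against untreated cells of the same genotype, Benjamini-Hochberg adjustment over all genes). Among all genes tested 21.6% rose and 20.5% fell at 8 h in RelA-TA-KI cells, and 12.0% rose and 8.8% fell in WT cells. The median log2 change of the 45 was 0.96 in RelA-TA-KI and 2.07 in WT cells, against -0.02 and -0.01 for all genes. At 3 h none had risen in RelA-TA-KI cells, where Samd9l alone had fallen, while 9 had risen in WT cells (background 10.9% higher and 8.08% lower in RelA-TA-KI, 9.32% higher and 6.36% lower in WT). The 9 were Parp14, Rsad2, Slfn2, Dtx3l, Trim21, Parp9, Cmpk2, Samd9l and Ifitm3. At 0.5 and 1 h the single call was a rise of Slfn2, a Schlafen protein, in WT cells at 1 h ( log2 1.51, SE 0.37, adjusted p = 0.036). Of all genes 0.831% rose and 0.238% fell at 0.5 h in RelA-TA-KI cells and 0.91% and 0.13% in WT cells, and at 1 h 2.0% and 1.28% in RelA-TA-KI cells and 2.57% and 1.24% in WT cells.

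The wave came between 3 and 8 h in both genotypes. From 3 h to 8 h, 32 genes rose in RelA-TA-KI cells and 26 in WT cells, against 10.2% and 3.11% of all genes (8.96% and 2.38% fell, and no member did), and the median step was 1.52 in RelA-TA-KI cells and 1.50 in WT cells on the log2 scale. Before the wave most members were lower than in untreated cells: their median log2 change at 0.5 h was -0.94 in RelA-TA-KI and -0.57 in WT cells. No member passed the test. In edgeR 22 and 4 of 45 were below an unadjusted p of 0.05, with no share of all genes given for that p. The WT median was 0.026 without WT untreated replicate 2. Macrophage markers were lower at 0.5 h too, by medians of -0.47 in RelA-TA-KI and -0.32 in WT cells with none past the test, while fibroblast markers had medians of 0.003 and -0.011; the part of macrophages in the dip was not tested. Isg15, the ubiquitin-like modifier, had 51.6 and 45.7 CPM in untreated RelA-TA-KI cells and 14.2 and 13.9 CPM at 0.5 h, and 12.7 and 41.0 CPM in untreated WT cells and 7.69 and 24.9 CPM at 0.5 h. Set against the 0.5 h libraries instead, a choice made after the data were seen, 41 members had risen at 8 h in RelA-TA-KI cells (18.7% of all genes).

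Replicates of one number ran together within a genotype, so the tests were also fitted with the replicate number as a block within each genotype. In that fit 38 members had risen at 8 h in RelA-TA-KI cells and 43 in WT cells, all but Ifi27 and Ifi27l2a, against 27.4% and 17.3% of all genes. At 3 h it called 2 members higher (Slfn2 and Rsad2) and 32 lower in RelA-TA-KI cells, and 19 higher in WT cells, against 18.8% and 16.5% of all genes in RelA-TA-KI and 14.9% in WT. It also called 40 members lower at 0.5 h and 29 at 1 h in RelA-TA-KI cells (6.73% and 7.3% of all genes), and 9 lower with 1 higher at 0.5 h and 12 lower with 1 higher at 1 h in WT cells (1.7% and 4.0% lower). The step between 3 and 8 h took in 41 and 42 members there, against 18.1% and 8.55% of all genes. Without RelA-TA-KI 8 h replicate 2 the 17 rises at 8 h became 5, and without either untreated RelA-TA-KI library they became 9. The step of 32 genes became 6 without RelA-TA-KI 3 h replicate 1 and 7 without RelA-TA-KI 8 h replicate 2, and that of 26 in WT cells became 7 without WT 3 h replicate 1 or WT 8 h replicate 2.

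**Figure D1:**
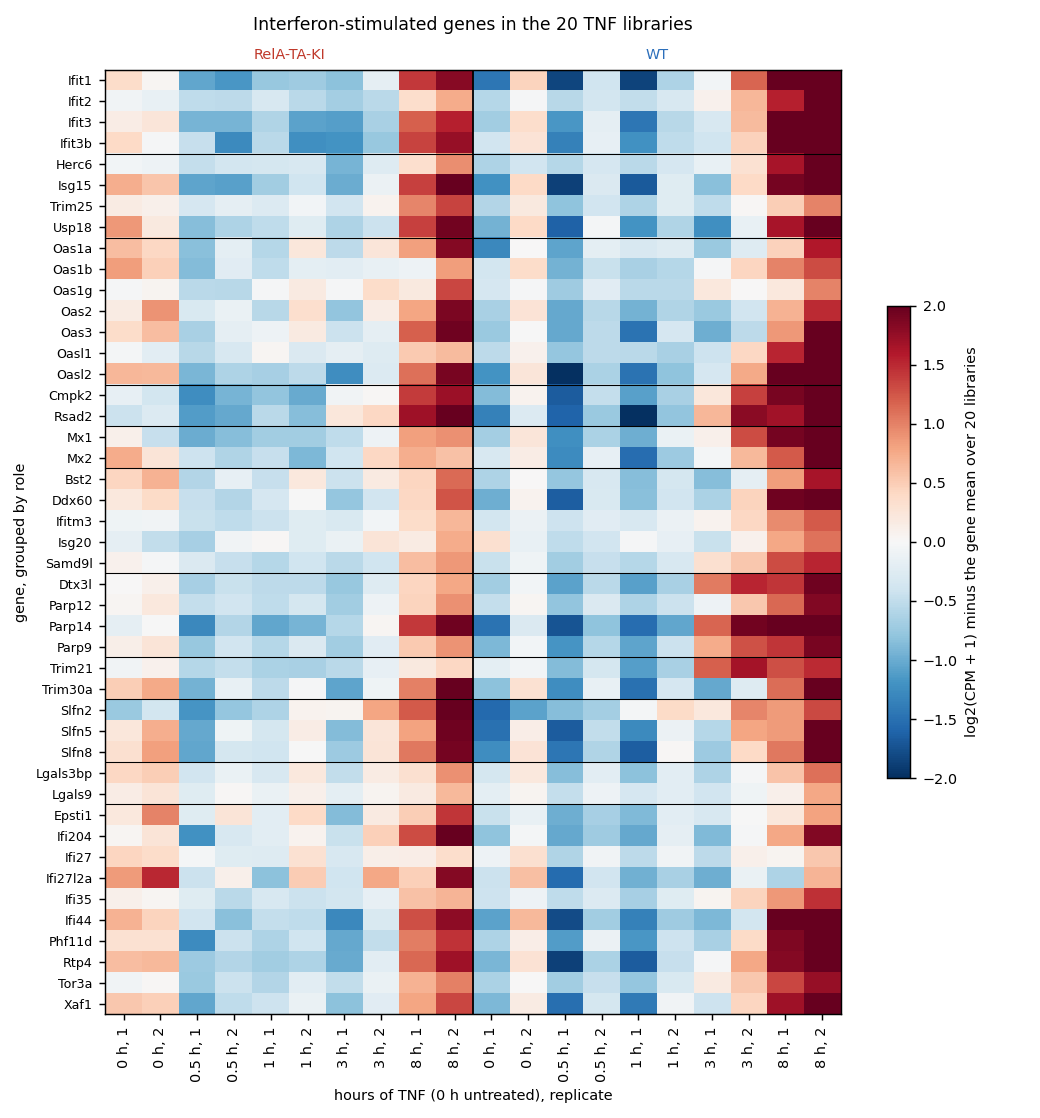
Each row is 1 of the 45 genes, grouped by role, and each column 1 of the 20 TNF libraries (RelA-TA-KI left, WT right, times from untreated to 8 h); colour gives log2(CPM + 1) minus the gene's mean over the 20 libraries, with colours saturating at 2 log2 units. The 8 h columns are the highest for most rows in both genotypes, and a second group of rows, with Dtx3l, Parp9, Parp14 and Trim21, is already high at 3 h in the WT columns.

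Without the replicate block, the size of the TNF response differed between the genotypes for 4 members at 3 h and 7 at 8 h. Each of these members responded less in RelA-TA-KI cells. At 3 h these were Trim21, Samd9l, Dtx3l and Parp9, against 0.73% of all genes called in that direction. At 8 h they were Herc6, Ifit2, Parp9, Dtx3l, Trim21, Samd9l and Ifitm3, against 3.42% of all genes. The difference of responses, RelA-TA-KI minus WT, was negative for 44 of the 45 at 3 h and for 42 at 8 h, with medians of -1.06 and -1.18 on the log2 scale against 0.01 and -0.01 for all genes. At an unadjusted p below 0.05 there were 16 members at 3 h and 24 at 8 h, with no share of all genes given for that p. At 0.5 and 1 h no member was called (edgeR, 0 and 1 at an unadjusted p below 0.05), against 0.0506% and 0.303% of all genes called lower.

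The genotypes also stood apart before TNF. Untreated RelA-TA-KI cells had a median log2 difference of 0.52 from WT over the 45 genes, positive for 43 of them, with no member past the test (edgeR, 2 at an unadjusted p below 0.05; 0.0% of all genes called higher and 0.00722% lower). Markers of other cells moved with it, none past the test: the median difference was 0.57 for 15 macrophage markers and 1.79 for the 7 muscle markers tested, against 0.21 for 10 fibroblast markers. Macrophage markers summed to 1458 and 2456 CPM in untreated RelA-TA-KI cells and 1141 and 1734 CPM in untreated WT cells, and muscle markers to 194 and 94.6 CPM in RelA-TA-KI and 159 and 101 CPM in WT cells. RelA-TA-KI untreated replicate 1 had the highest levels of the muscle genes Actc1 (25.3 CPM) and Tnnt2 (19.9 CPM) among the 20 libraries. Myog, Myod1, Myh3 and Tnnt1 were also highest there. The most abundant muscle markers, Des and Acta1, went the other way. Des had 99.5 and 73.6 CPM in untreated RelA-TA-KI and 121.5 and 74.3 CPM in untreated WT cells. Acta1 had 21.7 and 7.41 CPM in untreated RelA-TA-KI and 27.4 and 14.2 CPM in untreated WT cells. The part of these cells in the difference was not tested. With a replicate block shared by both genotypes, a pairing that the labels do not state, some members were called higher untreated. That fit also called more members lower at 3 and 8 h, with counts given in the closing section. Compared directly at each time, 6 members were lower in RelA-TA-KI cells at 3 h (2.4% of all genes) and 15 at 8 h (8.11%), and none was higher. No member was called at 0.5 or 1 h (edgeR, 0 and 1 at an unadjusted p below 0.05), against 0.195% and 0.852% of all genes called lower and 0.0% and 0.0578% higher. The 6 became 3 without WT 3 h replicate 2 or RelA-TA-KI 3 h replicate 1. The 15 became 4 without WT 8 h replicate 2, 5 without RelA-TA-KI 8 h replicate 1 and 6 without RelA-TA-KI 8 h replicate 2. Median differences at 3 and 8 h were -0.52 and -0.70. Within replicate number 1, where both genotypes had Xist and almost no Ddx3y, the median difference of responses was -1.42 at 3 h and -1.72 at 8 h, negative for 44 and 45 genes. Within replicate number 2 it was -0.78 and -0.85, negative for 38 and 41 genes. These values rest on single libraries, whose deviations the members may share, and no value over all genes is given beside them. The untreated libraries differed by a median of 1.03 within number 1 and 0.16 within number 2, while the 8 h libraries differed by -0.57 and -0.71.

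With the replicate block within genotype, 26 members responded less in RelA-TA-KI cells at 3 h and 33 at 8 h, against 3.79% and 9.82% of all genes. It also called 1 member at 0.5 h and 1 at 1 h (0.144% and 0.592%). Counts of the fit without the block moved with single libraries. The 4 at 3 h became 1 without WT 3 h replicate 2 or RelA-TA-KI 3 h replicate 1. The 7 at 8 h became 0 without WT untreated replicate 1, 1 without WT 8 h replicate 2, and 3 without RelA-TA-KI untreated replicate 2 or RelA-TA-KI 8 h replicate 1. They became 4 without RelA-TA-KI untreated replicate 1 and 14 without WT untreated replicate 2. Macrophage markers moved the other way: their sum at 8 h was 2290.1 and 4336 CPM in RelA-TA-KI libraries and 1392 and 2197 CPM in WT libraries. None of the 15 was called for the difference of responses at 3 or 8 h. Compared directly at 8 h, 2 of the 15 were called higher in RelA-TA-KI cells and 0 lower, with a median log2 difference of 1.07. No share of all genes called higher is given for that comparison. The part of macrophages in the result was not tested. In bulk RNA, fewer responding cells and less RNA per cell cannot be told apart.

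**Figure D2:**
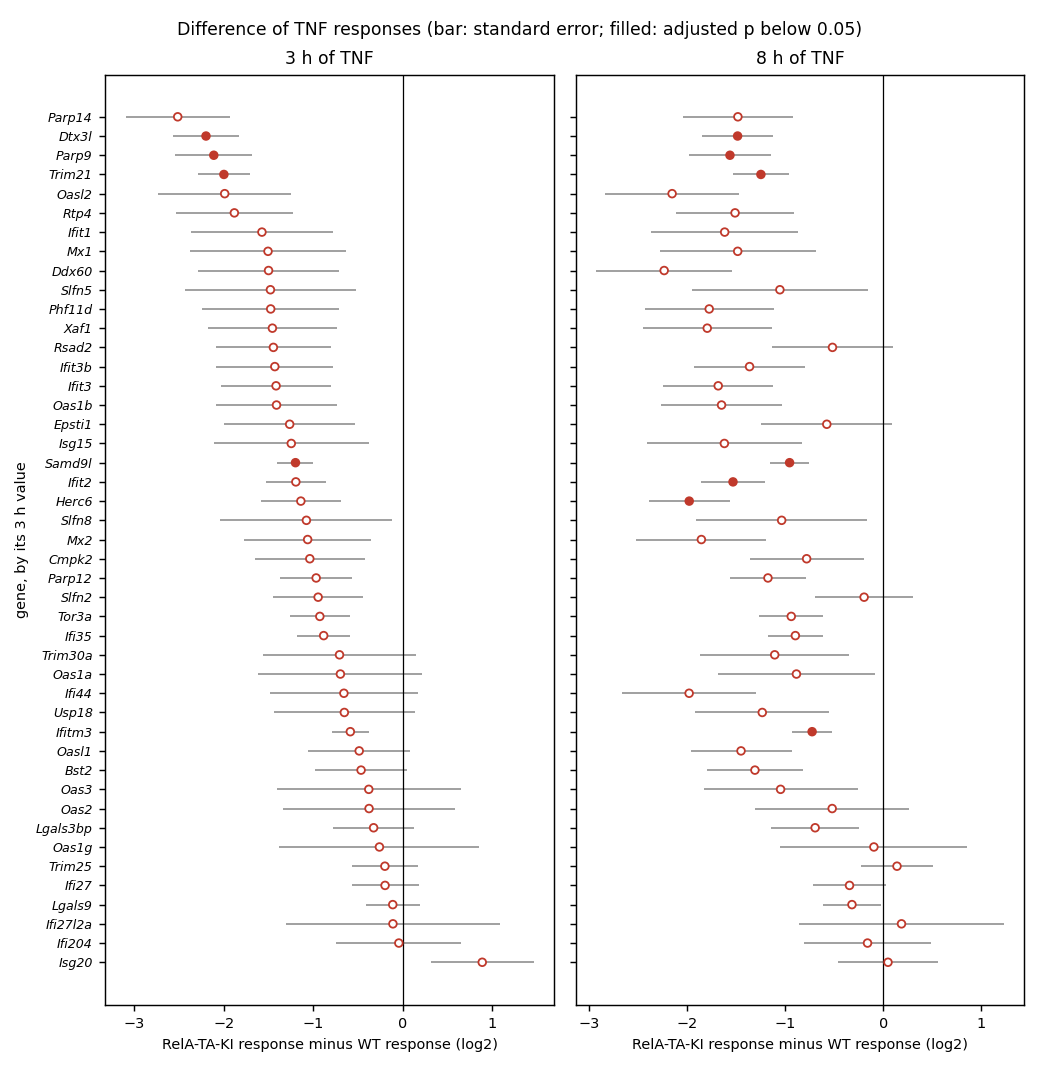
The x axis gives the RelA-TA-KI response to TNF minus the WT response (log2) at 3 h and 8 h for the 45 genes, with standard errors; filled points have an adjusted p below 0.05. Nearly all points lie left of 0, and the filled ones are 4 at 3 h and 7 at 8 h in this fit without the replicate block.

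Most of the PARP and ubiquitin ligase group had already risen at 3 h in WT cells. Calls after TNF in this and the following paragraphs come from the fit without the replicate block, unless stated. With the block within genotype, more members had risen at 8 h in both genotypes, and the gap in the number of rises was narrower. Genes that missed the test here may have passed in that fit. Dtx3l is a ubiquitin ligase that works with the ADP-ribosyltransferase Parp9, and Parp14 and Parp12 are ADP-ribosyltransferases that limit viral replication. In WT cells 3 of the 4 had risen at 3 h and all 4 at 8 h, and in RelA-TA-KI cells none had at 3 h and Parp14 alone at 8 h. In RelA-TA-KI cells Dtx3l had 44.1 and 47.2 CPM before TNF, 27.5 and 32.2 CPM at 0.5 h, 30.5 and 30.2 CPM at 1 h, 25.7 and 36.7 CPM at 3 h and 59.8 and 76.3 CPM at 8 h. In WT cells Dtx3l had 26.9 and 42.6 CPM before TNF, 20.5 and 30.0 CPM at 0.5 h, 20.3 and 27.9 CPM at 1 h, 91.5 and 129 CPM at 3 h and 121 and 173 CPM at 8 h. The 3 h level in RelA-TA-KI cells was below both untreated libraries, and that in WT cells was above all earlier ones. The responses differed at 3 h (log2 -2.20, SE 0.37, adjusted p = 0.009) and at 8 h (log2 -1.49, SE 0.36, adjusted p = 0.024). At 3 h the adjusted p was 0.0527 without WT 3 h replicate 2 and 0.0654 without RelA-TA-KI 3 h replicate 1. At 8 h the call was lost without WT untreated replicate 1 (0.115), WT 8 h replicate 2 (0.104), RelA-TA-KI untreated replicate 1 (0.0572) or 2 (0.088), or RelA-TA-KI 8 h replicate 1 (0.0834). Parp9 stood at 48.7 and 54.0 CPM in untreated RelA-TA-KI cells and at 26.1 and 33.9, 30.0 and 36.4, 27.2 and 38.1, and 64.8 and 84.6 CPM in RelA-TA-KI cells after 0.5, 1, 3 and 8 h of TNF. Parp9 stood at 23.6 and 42.9 CPM in untreated WT cells and at 19.2 and 29.9, 21.1 and 32.9, 75.7 and 109, and 122 and 169 CPM in WT cells after 0.5, 1, 3 and 8 h of TNF. Parp9 showed the same order of libraries at 3 and 8 h, with both RelA-TA-KI libraries below both WT libraries. Its responses differed at 3 h (log2 -2.11, SE 0.43, adjusted p = 0.03) and 8 h (log2 -1.56, SE 0.41, adjusted p = 0.037). Dtx3l (chr16:35926511-35939151, minus strand) and Parp9 (chr16:35938470-35972605, plus strand) overlap at their starts. Since the strand setting of the counting is not stated, how reads in the overlap were counted is not known. The Parp9 call was lost without 6 of 8 libraries left out singly at each time, the adjusted p reaching 0.173 without WT 3 h replicate 2 and 0.17 without RelA-TA-KI 3 h replicate 1 at 3 h, and 0.157 at 8 h without WT untreated replicate 1.

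The 10 RelA-TA-KI libraries gave Parp14 38.5 and 43.9 CPM untreated, 17.4 and 28.8 CPM at 0.5 h, 20.9 and 22.7 CPM at 1 h, 29.3 and 45.3 CPM at 3 h and 119 and 171 CPM at 8 h. The 10 WT libraries gave Parp14 15.2 and 35.8 CPM untreated, 12.6 and 24.6 CPM at 0.5 h, 14.6 and 20.8 CPM at 1 h, 100.1 and 170.4 CPM at 3 h and 189.6 and 327 CPM at 8 h. Parp14 had the largest rise of the 45 in WT cells at 8 h (log2 3.30, SE 0.42, adjusted p = 5.8e-05) and the largest difference of responses at 3 h, which did not pass the test (log2 -2.51, SE 0.58, adjusted p = 0.062). Compared directly at 3 h, it was lower in RelA-TA-KI cells (log2 -1.86, SE 0.40, adjusted p = 0.017), a call lost without WT 3 h replicate 2 (adjusted p = 0.192), RelA-TA-KI 3 h replicate 1 (0.202) or RelA-TA-KI 3 h replicate 2 (0.0644). At 8 h both genotypes had risen, and both RelA-TA-KI libraries stayed below both WT libraries. Parp12 had 64.4 and 89.0 CPM at 8 h in RelA-TA-KI cells, against 105 and 172 CPM in WT cells, and was lower there (log2 -0.85, SE 0.27, adjusted p = 0.043), with a call lost in 3 of 4 fits that left out an 8 h library (adjusted p up to 0.359, without WT 8 h replicate 2).

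**Figure D3:**
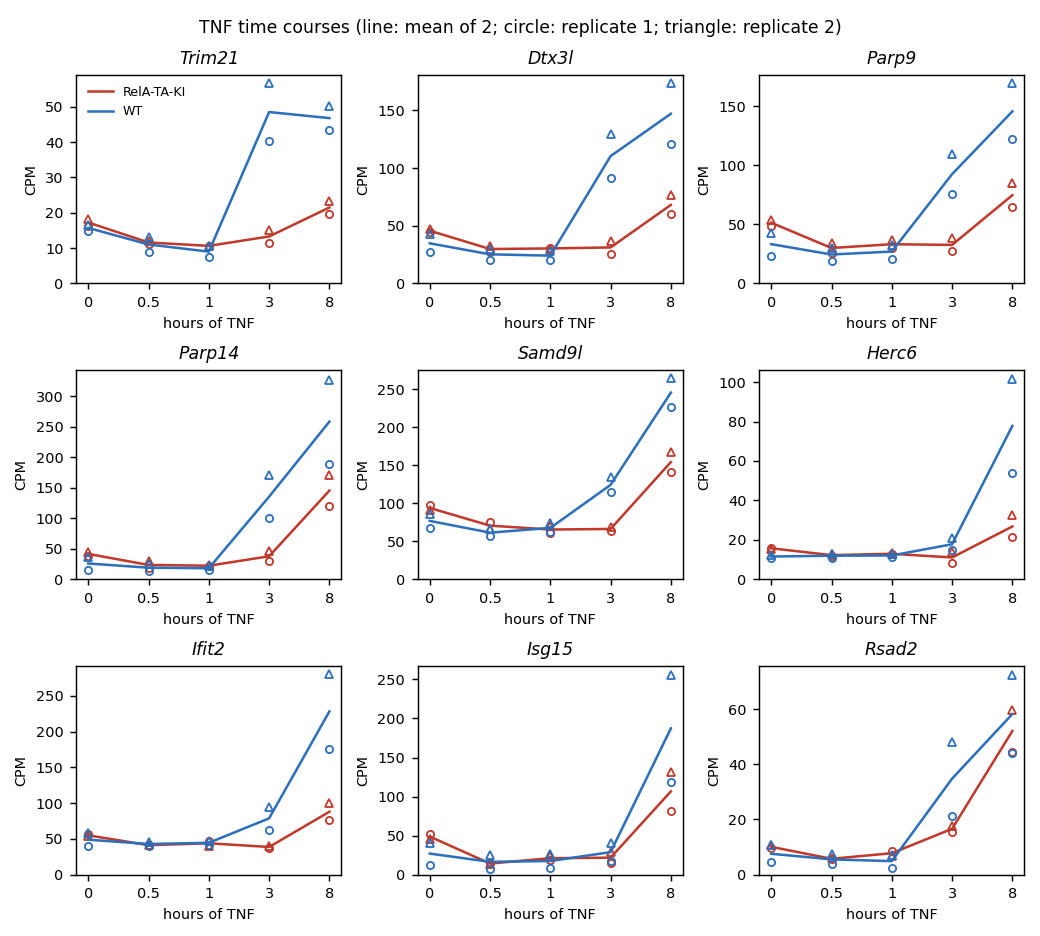
CPM (y axis, linear, from 0) against hours of TNF (x axis) for 9 genes; lines join the means of 2 libraries, circles are replicate 1 and triangles replicate 2. Trim21, Dtx3l, Parp9 and Parp14 climb at 3 h in WT cells and not in RelA-TA-KI cells, while Herc6, Ifit2 and Isg15 climb mainly between 3 and 8 h.

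The TRIM proteins split. Trim21 (ENSMUSG00000030966, chr7:102557922-102565469, minus strand) is a cytosolic antibody receptor and ubiquitin ligase that marks virus particles coated with antibody, and Trim30a is a TRIM protein known in the mouse. In RelA-TA-KI cells Trim21 had 16.2 and 18.3 CPM before TNF, 11.2 and 12.0 CPM at 0.5 h, 10.7 and 10.6 CPM at 1 h, 11.5 and 15.1 CPM at 3 h and 19.7 and 23.3 CPM at 8 h. In WT cells Trim21 had 14.9 and 16.5 CPM before TNF, 8.90 and 13.2 CPM at 0.5 h, 7.50 and 10.5 CPM at 1 h, 40.4 and 56.7 CPM at 3 h and 43.5 and 50.1 CPM at 8 h. Both WT libraries at 3 h stood above every untreated, 0.5 h and 1 h library of either genotype, and both RelA-TA-KI libraries at 3 h were below their own untreated libraries. The responses differed at 3 h (log2 -2.00, SE 0.29, adjusted p = 0.0029), and this call held in all 15 alternatives run, the 8 that leave out 1 library included. They differed also at 8 h (log2 -1.25, SE 0.28, adjusted p = 0.018), where the call was lost without WT untreated replicate 1 (adjusted p = 0.0786), RelA-TA-KI untreated replicate 2 (0.0819), WT 8 h replicate 2 (0.0687) or RelA-TA-KI 8 h replicate 1 (0.0601). The WT levels at 8 h overlapped those at 3 h, whereas most members rose between these times. Trim30a stood at 26.7 and 32.4 CPM in untreated RelA-TA-KI cells and at 9.24 and 16.8, 12.8 and 18.3, 8.45 and 17.5, and 38.5 and 78.4 CPM in RelA-TA-KI cells after 0.5, 1, 3 and 8 h of TNF. Trim30a stood at 10.1 and 23.4 CPM in untreated WT cells and at 7.29 and 16.7, 5.97 and 14.6, 8.69 and 15.6, and 41.8 and 105 CPM in WT cells after 0.5, 1, 3 and 8 h of TNF. Trim30a showed the late pattern, with replicate 2 above replicate 1 in both genotypes, and had risen at 8 h in WT cells (log2 2.09, SE 0.55, adjusted p = 0.014), with no call in RelA-TA-KI cells (log2 0.98, SE 0.53, adjusted p = 0.15).

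The membrane and nuclease effectors rose at 8 h in WT cells in 5 of 5 and in RelA-TA-KI cells in 3 of 5 (Samd9l, Ifitm3 and Isg20). Samd9l is an interferon-induced inhibitor of protein synthesis, and Ifitm3 is a membrane protein that blocks the fusion of viruses in endosomes. The 10 RelA-TA-KI libraries gave Samd9l 96.8 and 90.3 CPM untreated, 74.4 and 66.0 CPM at 0.5 h, 60.9 and 69.3 CPM at 1 h, 62.9 and 68.9 CPM at 3 h and 141 and 167 CPM at 8 h. The 10 WT libraries gave Samd9l 66.8 and 86.2 CPM untreated, 56.1 and 65.9 CPM at 0.5 h, 61.2 and 73.3 CPM at 1 h, 114 and 134 CPM at 3 h and 226 and 265 CPM at 8 h. Samd9l moved in opposite directions at 3 h: it fell in RelA-TA-KI cells (log2 -0.51, SE 0.14, adjusted p = 0.025) and rose in WT cells (log2 0.69, SE 0.14, adjusted p = 0.0039). The fall was lost without any 1 of the 4 RelA-TA-KI libraries at 0 and 3 h, and with the 0.5 h libraries as baseline. The difference of responses was called at 3 h (log2 -1.20, SE 0.20, adjusted p = 0.009) and 8 h (log2 -0.96, SE 0.20, adjusted p = 0.011); the adjusted p was 0.0538 without WT 3 h replicate 2, 0.0621 without RelA-TA-KI 3 h replicate 1, 0.0589 at 8 h without WT untreated replicate 1 and 0.0503 without WT 8 h replicate 2. In RelA-TA-KI cells Ifitm3 had 214 and 216 CPM before TNF, 166 and 159.6 CPM at 0.5 h, 167 and 191 CPM at 1 h, 183 and 218 CPM at 3 h and 294 and 359.8 CPM at 8 h. In WT cells Ifitm3 had 174 and 209 CPM before TNF, 169 and 194 CPM at 0.5 h, 182 and 209 CPM at 1 h, 237 and 300.3 CPM at 3 h and 436 and 528 CPM at 8 h. Ifitm3 had the highest level per length of the 45 at 8 h, 482 CPM per kilobase in RelA-TA-KI cells and 712 CPM per kilobase in WT cells, and rose in both genotypes. Its difference of responses at 8 h was small (log2 -0.73, SE 0.20, adjusted p = 0.047) and was lost without 6 of 8 libraries left out singly, the adjusted p reaching 0.195 without WT untreated replicate 1.

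Isg20 stood at 1.96 and 1.39 CPM in untreated RelA-TA-KI cells and at 1.12 and 2.20, 2.41 and 1.82, 2.05 and 3.00, and 2.76 and 4.61 CPM in RelA-TA-KI cells after 0.5, 1, 3 and 8 h of TNF. Isg20 stood at 3.19 and 2.01 CPM in untreated WT cells and at 1.35 and 1.58, 2.29 and 1.98, 1.47 and 2.58, and 4.73 and 6.15 CPM in WT cells after 0.5, 1, 3 and 8 h of TNF. Isg20, an RNA exonuclease, was low, and it was the single member whose difference of responses at 3 h was positive (log2 0.89, SE 0.57, adjusted p = 0.66). It had risen at 8 h by similar amounts, log2 1.14 in RelA-TA-KI and 1.09 in WT cells, with both RelA-TA-KI libraries below both WT libraries. Bst2, which tethers budding virus to the cell, had 66.8 and 110.1 CPM at 8 h in RelA-TA-KI cells, against 89.2 and 157 CPM in WT cells. Ddx60, a helicase, had 6.53 and 12.5 CPM there in RelA-TA-KI cells, against 20.7 and 33.5 CPM in WT cells, and the largest difference of responses at 8 h of the 45, which missed the test (log2 -2.24, SE 0.69, adjusted p = 0.068). Bst2 and Ddx60 had risen in WT cells and did not pass in RelA-TA-KI cells.

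All 4 IFIT genes, whose proteins bind viral RNA with foreign ends, had risen at 8 h in both genotypes, by medians of 1.32 in RelA-TA-KI and 2.85 in WT cells on the log2 scale. In RelA-TA-KI cells Ifit1 had 60.5 and 47.6 CPM before TNF, 22.1 and 20.1 CPM at 0.5 h, 27.1 and 28.0 CPM at 1 h, 25.8 and 40.7 CPM at 3 h and 126 and 166 CPM at 8 h. In WT cells Ifit1 had 16.4 and 63.8 CPM before TNF, 12.3 and 35.0 CPM at 0.5 h, 12.2 and 29.9 CPM at 1 h, 44.5 and 106 CPM at 3 h and 263 and 423 CPM at 8 h. Ifit1 levels of the genotypes did not overlap at 3 h or 8 h, yet both WT libraries at each time differed by more than 1.5 times, and the difference of responses at 8 h missed the test (log2 -1.62, SE 0.75, adjusted p = 0.21). Ifit2 stood at 56.4 and 53.2 CPM in untreated RelA-TA-KI cells and at 41.3 and 40.9, 47.3 and 40.2, 36.6 and 40.5, and 76.1 and 99.6 CPM in RelA-TA-KI cells after 0.5, 1, 3 and 8 h of TNF. Ifit2 stood at 39.5 and 57.9 CPM in untreated WT cells and at 39.8 and 45.6, 41.8 and 47.0, 62.7 and 94.5, and 176 and 280.1 CPM in WT cells after 0.5, 1, 3 and 8 h of TNF. Ifit2 levels did not overlap between the genotypes at 3 or 8 h, and its response was smaller in RelA-TA-KI cells at 8 h (log2 -1.53, SE 0.32, adjusted p = 0.012). The call gave an adjusted p of 0.0665 without WT untreated replicate 1 and 0.0544 without WT 8 h replicate 2. Ifit3 and its close copy Ifit3b were also lower in RelA-TA-KI cells at 8 h (log2 -1.43, SE 0.37, adjusted p = 0.018 for Ifit3), with 62.6 and 80.7 CPM in RelA-TA-KI and 142 and 246 CPM in WT cells. Of their 50-base windows, 51.2% of Ifit3 are shared with other genes, so the split between them is uncertain. The Ifit3 call was lost in 3 of 4 and the Ifit3b call in 4 of 4 fits that left out an 8 h library, with adjusted p up to 0.165 and 0.258 without WT 8 h replicate 2.

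The ISG15 system tags proteins with the ubiquitin-like Isg15: Trim25 and Herc6 are ligases, and Usp18 removes the tag and damps the interferon receptor. All 4 had risen in WT cells at 8 h, and Trim25 and Herc6 in RelA-TA-KI cells, in the fit without the replicate block. The 10 RelA-TA-KI libraries gave Herc6 15.8 and 15.4 CPM untreated, 11.6 and 12.6 CPM at 0.5 h, 12.6 and 13.0 CPM at 1 h, 8.21 and 13.7 CPM at 3 h and 21.1 and 32.3 CPM at 8 h. The 10 WT libraries gave Herc6 10.4 and 12.4 CPM untreated, 10.8 and 12.9 CPM at 0.5 h, 11.1 and 12.9 CPM at 1 h, 14.7 and 20.6 CPM at 3 h and 54.1 and 102 CPM at 8 h. Herc6 had the largest called difference of responses at 8 h (log2 -1.98, SE 0.41, adjusted p = 0.012). The call was lost without WT untreated replicate 1 alone among the 8 libraries left out (adjusted p = 0.0589). About 23.8% of its 50-base windows occur in other genes. In RelA-TA-KI cells Trim25 had 109.9 and 105 CPM before TNF, 77.4 and 86.3 CPM at 0.5 h, 81.0 and 94.2 CPM at 1 h, 75.1 and 102 CPM at 3 h and 193 and 250.2 CPM at 8 h. In WT cells Trim25 had 64.6 and 112 CPM before TNF, 55.7 and 75.1 CPM at 0.5 h, 63.8 and 82.5 CPM at 1 h, 68.5 and 99.6 CPM at 3 h and 137 and 196 CPM at 8 h. Trim25 went with neither the early nor the smaller pattern: it rose by log2 1.04 in RelA-TA-KI and 0.90 in WT cells, the smallest called rise in WT, and its difference of responses was near 0 (log2 0.14, SE 0.36, adjusted p = 0.86). At 8 h Isg15 had 81.2 and 132 CPM in RelA-TA-KI cells, against 119 and 255 CPM in WT cells, ranges that overlap. Usp18 had 33.5 and 49.9 CPM in RelA-TA-KI cells, against 40.8 and 81.8 CPM in WT cells, again with overlap.

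OAS enzymes make the messenger that activates RNase L, and the Oas-like proteins share their fold. Of the 7, 1 had risen at 8 h in RelA-TA-KI cells (Oasl1) and 5 in WT cells (all but Oas2 and Oas1g). These counts are from the fit without the replicate block. Oasl2 stood at 41.2 and 41.0 CPM in untreated RelA-TA-KI cells and at 13.2 and 16.4, 15.9 and 17.6, 10.3 and 21.1, and 56.2 and 98.5 CPM in RelA-TA-KI cells after 0.5, 1, 3 and 8 h of TNF. Oasl2 stood at 10.7 and 30.7 CPM in untreated WT cells and at 5.67 and 16.2, 8.64 and 14.4, 20.2 and 44.1, and 129 and 231 CPM in WT cells after 0.5, 1, 3 and 8 h of TNF. Oasl2, an Oas-like protein, rose strongly in WT cells (log2 3.07, SE 0.50, adjusted p = 0.00054) and at 8 h stood lower in both RelA-TA-KI libraries than in either WT library, but it had started higher in RelA-TA-KI cells, and the difference of responses missed the test (log2 -2.16, SE 0.68, adjusted p = 0.072). Oasl1, which in the mouse restrains Irf7 translation, had 3.77 and 4.16 CPM at 8 h in RelA-TA-KI cells, against 8.57 and 12.7 CPM in WT cells, and was lower (log2 -1.42, SE 0.32, adjusted p = 0.0075), with an adjusted p of 0.0854 without WT 8 h replicate 2 and 0.0552 without RelA-TA-KI 8 h replicate 2. Oas1a, Oas1g, Oas2 and Oas3 overlapped between genotypes at 8 h, at 0.879 to 16.5 CPM in RelA-TA-KI and 0.895 to 13.9 CPM in WT cells. Oas1a and Oas1g share 57.6% and 54.7% of their windows with other genes.

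Rsad2 encodes viperin, an enzyme that makes a chain-terminating nucleotide, and the neighbouring gene Cmpk2 supplies its substrate. In RelA-TA-KI cells Rsad2 had 9.44 and 10.7 CPM before TNF, 5.50 and 5.93 CPM at 0.5 h, 8.67 and 6.80 CPM at 1 h, 15.4 and 17.7 CPM at 3 h and 44.4 and 59.7 CPM at 8 h. In WT cells Rsad2 had 4.49 and 10.6 CPM before TNF, 3.64 and 7.36 CPM at 0.5 h, 2.54 and 7.18 CPM at 1 h, 21.4 and 48.2 CPM at 3 h and 44.1 and 72.3 CPM at 8 h. Rsad2 rose at 8 h to similar levels in both genotypes, log2 2.37 in RelA-TA-KI and 2.89 in WT cells, with overlapping libraries, and it lagged at 3 h, when both RelA-TA-KI libraries lay below both WT libraries (log2 -1.45, SE 0.64, adjusted p = 0.44 for the difference of responses). Cmpk2 followed it, with 9.78 and 10.5 CPM at 3 h and 28.7 and 35.8 CPM at 8 h in RelA-TA-KI cells, against 12.2 and 28.1 and 41.1 and 68.5 CPM in WT cells. Both had risen at 8 h in both genotypes and at 3 h in WT cells.

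Mx proteins are dynamin-like GTPases that trap viral nucleocapsids; the Mx1 gene of C57BL/6 and most laboratory strains is known to carry a defective allele. In the fit without the replicate block, neither had risen at 8 h in RelA-TA-KI cells and both had in WT cells. The 10 RelA-TA-KI libraries gave Mx2 6.25 and 4.17 CPM untreated, 2.25 and 1.87 CPM at 0.5 h, 2.17 and 1.33 CPM at 1 h, 2.29 and 4.79 CPM at 3 h and 6.15 and 5.51 CPM at 8 h. The 10 WT libraries gave Mx2 2.46 and 3.83 CPM untreated, 0.810 and 2.89 CPM at 0.5 h, 0.508 and 1.61 CPM at 1 h, 3.24 and 5.79 CPM at 3 h and 9.21 and 16.9 CPM at 8 h. Both RelA-TA-KI libraries at 8 h lay within the range of the untreated ones, and both WT libraries were above all earlier WT libraries; the difference of responses missed the test (log2 -1.86, SE 0.67, adjusted p = 0.11). Mx1 was lower in RelA-TA-KI cells at 8 h, with 4.27 and 4.61 CPM, against 10.2 and 16.4 CPM in WT cells (log2 -1.58, SE 0.46, adjusted p = 0.032). That call was lost in 3 of 4 fits that left out an 8 h library (adjusted p up to 0.207, without WT 8 h replicate 2) and in DESeq2 (0.0819).

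Of the 3 Schlafen genes, which encode regulators of cell growth and of RNA, Slfn2 rose in both genotypes and Slfn5 and Slfn8 passed the test in WT cells. In RelA-TA-KI cells Slfn2 had 29.3 and 38.5 CPM before TNF, 21.4 and 28.9 CPM at 0.5 h, 32.3 and 52.7 CPM at 1 h, 51.9 and 86.8 CPM at 3 h and 119 and 202 CPM at 8 h. In WT cells Slfn2 had 16.4 and 23.2 CPM before TNF, 27.3 and 30.9 CPM at 0.5 h, 48.7 and 65.2 CPM at 1 h, 57.7 and 98.9 CPM at 3 h and 90.8 and 126 CPM at 8 h. Slfn2 was above its untreated level in both WT libraries from 0.5 h and in both RelA-TA-KI libraries from 1 h. It ended higher in RelA-TA-KI than in WT cells on average at 8 h, without passing the test (log2 0.57, SE 0.32, adjusted p = 0.26). Slfn5 had 35.8 and 80.8 CPM at 8 h in RelA-TA-KI cells, against 37.4 and 87.9 CPM in WT cells, so replicate 2 was above replicate 1 by more than the genotypes differed. Without the replicate block, neither galectin gene passed at 8 h in either genotype. With the block within genotype, both had risen at 8 h in WT cells. Lgals3bp, a secreted glycoprotein, had the following levels. Lgals3bp stood at 179.7 and 190.0 CPM in untreated RelA-TA-KI cells and at 103 and 123, 108 and 156, 95.8 and 152, and 169 and 256 CPM in RelA-TA-KI cells after 0.5, 1, 3 and 8 h of TNF. Lgals3bp stood at 106 and 156 CPM in untreated WT cells and at 73.9 and 117, 76.3 and 116, 88.1 and 132, and 200.2 and 289 CPM in WT cells after 0.5, 1, 3 and 8 h of TNF. Its levels at 8 h overlapped between genotypes, and those of Lgals9, galectin-9, did too.

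Of the 10 other interferon-inducible genes, 3 had risen at 8 h in RelA-TA-KI cells (Tor3a, Ifi204 and Ifi35) and 7 in WT cells (all but Ifi27, Ifi27l2a and Epsti1). The replicate block was left out of this fit. Tor3a, a torsin family ATPase, had the most counts of these. In RelA-TA-KI cells Tor3a had 45.5 and 48.6 CPM before TNF, 28.4 and 35.3 CPM at 0.5 h, 31.5 and 41.5 CPM at 1 h, 33.9 and 43.7 CPM at 3 h and 78.1 and 97.6 CPM at 8 h. In WT cells Tor3a had 30.6 and 48.3 CPM before TNF, 29.1 and 34.6 CPM at 0.5 h, 27.7 and 38.9 CPM at 1 h, 54.3 and 70.4 CPM at 3 h and 122 and 163 CPM at 8 h. Tor3a rose in both genotypes and was lower in RelA-TA-KI cells at 8 h (log2 -0.70, SE 0.22, adjusted p = 0.044), a call lost in 3 of 4 fits that left out an 8 h library (adjusted p up to 0.27, without WT 8 h replicate 2). Ifi44 was lower at 8 h as well, with 25.9 and 37.0 CPM in RelA-TA-KI cells, against 53.9 and 119 CPM in WT cells (log2 -1.46, SE 0.45, adjusted p = 0.039; up to 0.372 without WT 8 h replicate 2). The 10 RelA-TA-KI libraries gave Ifi27 66.6 and 64.1 CPM untreated, 48.0 and 41.6 CPM at 0.5 h, 40.9 and 61.4 CPM at 1 h, 39.2 and 53.4 CPM at 3 h and 54.2 and 63.0 CPM at 8 h. The 10 WT libraries gave Ifi27 46.0 and 61.7 CPM untreated, 32.0 and 47.1 CPM at 0.5 h, 34.2 and 47.1 CPM at 1 h, 34.2 and 53.2 CPM at 3 h and 51.2 and 72.3 CPM at 8 h. Ifi27, a mitochondrial membrane protein, did not pass the test at 8 h in either genotype. Ifi204, a DNA sensor of the mouse, rose by log2 1.69 in RelA-TA-KI and 1.85 in WT cells. Ifi27l2a had 4.14 and 12.1 CPM at 8 h in RelA-TA-KI cells, against 1.41 and 4.89 CPM in WT cells (log2 1.37, SE 0.74, adjusted p = 0.23).

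The interferon gene itself was all but absent after TNF: Ifnb1 had 0 counts in all 10 RelA-TA-KI libraries and in all WT libraries but 8 h replicate 2, which had 1 count. In a library, 0 counts allow up to 3. Irf1 was the gene of the pathway that separated the genotypes first. Irf1 stood at 25.0 and 27.2 CPM in untreated RelA-TA-KI cells and at 25.9 and 29.1, 37.3 and 41.3, 58.3 and 64.4, and 44.8 and 50.1 CPM in RelA-TA-KI cells after 0.5, 1, 3 and 8 h of TNF. Irf1 stood at 21.7 and 25.7 CPM in untreated WT cells and at 187 and 233, 477 and 565, 174 and 232, and 182 and 233 CPM in WT cells after 0.5, 1, 3 and 8 h of TNF. The Irf1 response was smaller in RelA-TA-KI cells at 0.5 h (log2 -3.06, SE 0.25, adjusted p = 2.8e-05), 1 h (log2 -3.86, SE 0.25, adjusted p = 1.2e-06), 3 h (log2 -1.86) and 8 h (log2 -2.25). Of 13 genes of type I interferon signalling, 12 were tested. At 8 h, 4 had risen in RelA-TA-KI cells and 11 in WT cells. The response was smaller in RelA-TA-KI cells for Irf1 and Tyk2 at 3 h and for Irf1, Stat2 and Tyk2 at 8 h, and larger for none; the list's median difference was -0.74 and -0.70. Stat2 had 102 and 111 CPM at 8 h in RelA-TA-KI cells, against 172 and 242 CPM in WT cells (log2 -1.34, SE 0.36, adjusted p = 0.041). Irf7 (log2 -1.02, adjusted p = 0.246) and Irf9 (log2 -0.71, adjusted p = 0.258) missed the test. Of 11 RNA sensors and their adaptors, 5 had risen at 8 h in RelA-TA-KI cells and 8 in WT cells. The response was smaller in RelA-TA-KI cells for Ddx58, which encodes the RNA sensor RIG-I, and Traf3 at 3 h, and for Ddx58, Traf3, Tbk1 and Zbp1 at 8 h. Zbp1, a sensor of Z-form nucleic acid, had 3.39 and 7.65 CPM at 8 h in RelA-TA-KI cells, against 15.5 and 30.2 CPM in WT cells (log2 -2.85, SE 0.74, adjusted p = 0.035).

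LPS and Poly(I:C) moved the same genes far more than TNF, and in both genotypes. No single condition had replicates here, so each condition is described by its log2 ratio of CPM, with a gene counted when it differed at least 2-fold and had at least 5 CPM in at least 1 of both libraries. With LPS, 44 of the 45 genes were at least 2-fold above untreated in RelA-TA-KI cells and 42 in WT cells at 3 h, against 11.1% and 12.9% of all genes. At 8 h of LPS they were 44 and 43, against 17.6% and 17.7%. With Poly(I:C) they were 42 and 40 at 3 h, against 7.38% and 6.98%, and 44 and 43 at 8 h, against 15.9% and 10.9%. At 0.5 and 1 h no more than 2 members were, in any series. The background there was 0.684% and 1.31% in RelA-TA-KI and 0.818% and 2.11% in WT cells with LPS, and 0.155% and 0.356% in RelA-TA-KI and 0.146% and 0.863% in WT cells with Poly(I:C). Median log2 ratios with LPS were 3.79 at 3 h and 5.02 at 8 h in RelA-TA-KI cells and 3.57 and 4.42 in WT cells. With Poly(I:C) they were 3.43 and 4.77 in RelA-TA-KI cells and 2.80 and 3.72 in WT cells.

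**Figure D4:**
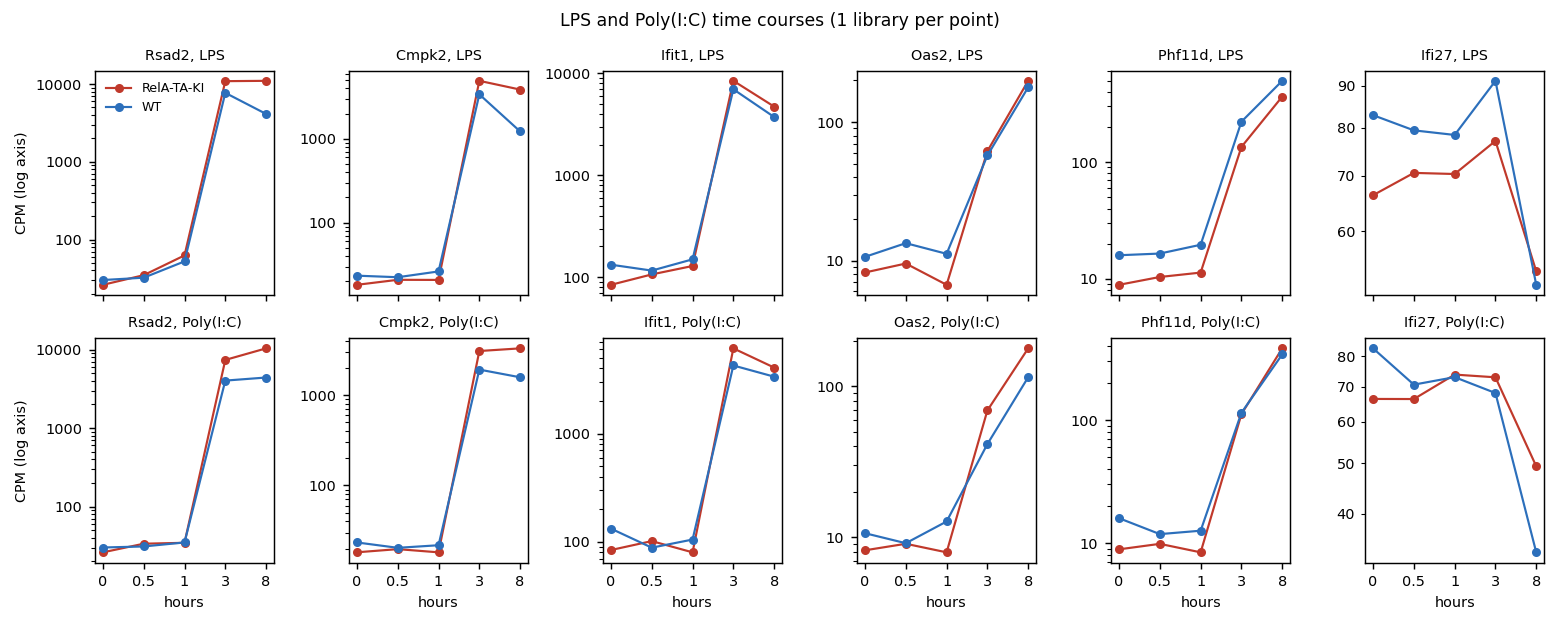
CPM (y axis, log scale) against hours of LPS or Poly(I:C) (x axis) for 6 genes in RelA-TA-KI and WT cells, with 1 library per point. Rsad2, Cmpk2 and Ifit1 rise by orders of magnitude between 1 and 3 h, Oas2 and Phf11d go on rising to 8 h, and Ifi27 ends lower than it began.

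Members differed in when they peaked. Trim21, Trim25, Ifit1, Dtx3l and Ifi27 were higher at 3 h than at 8 h with both agents in both genotypes. The Oas1a, Oas1g, Oas2 and Oas3 genes went on climbing, by log2 1.36 to 2.51 from 3 h to 8 h over both agents and genotypes. Over all 45, the 8 h level was at least 2-fold above the 3 h level for 20 genes in RelA-TA-KI and 12 in WT cells with LPS, against 8.36% and 7.72% of all genes. With Poly(I:C) it was for 22 and 20, against 9.29% and 3.36%. In WT cells with LPS, Cmpk2 and Trim25 were at least 2-fold lower at 8 h than at 3 h (log2 -1.47 and -1.04; 7.69% of all genes), and in WT cells with Poly(I:C) Ifi27 was (log2 -1.01; 1.48%).

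The viperin pair had the largest late genotype differences of the 45 with both agents, with more RNA in RelA-TA-KI cells. In RelA-TA-KI cells Rsad2 had 26.1 CPM untreated, 34.8, 62.4, 10893 and 10999.9 CPM with LPS and 33.6, 34.6, 7381 and 10363 CPM with Poly(I:C). In WT cells Rsad2 had 30.1 CPM untreated, 32.3, 52.3, 7704 and 4125 CPM with LPS and 31.1, 34.9, 4025 and 4406 CPM with Poly(I:C). In each series the 4 values run over 0.5, 1, 3 and 8 h. In RelA-TA-KI cells the 3 h level was held to 8 h, while in WT cells with LPS Rsad2 was lower at 8 h than at 3 h. In RelA-TA-KI cells Cmpk2 had 18.2 CPM untreated, 20.9, 20.8, 4910.1 and 3863 CPM with LPS and 19.7, 18.2, 3081 and 3297 CPM with Poly(I:C). In WT cells Cmpk2 had 23.4 CPM untreated, 22.4, 26.3, 3388 and 1225 CPM with LPS and 20.4, 21.8, 1919 and 1577 CPM with Poly(I:C). Cmpk2 with LPS was lower at 8 h than at 3 h in both genotypes, by log2 -0.35 in RelA-TA-KI and -1.47 in WT cells. With the 3 h and 8 h libraries fitted as repeats of a late difference, RelA-TA-KI cells were higher for Rsad2 with LPS (log2 0.96, SE 0.18, adjusted p = 0.0046) and Poly(I:C) (log2 1.05, SE 0.18, adjusted p = 0.0034). They were higher for Cmpk2 with LPS (log2 1.09, SE 0.20, adjusted p = 0.0043) and Poly(I:C) (log2 0.87, SE 0.20, adjusted p = 0.015). Such a p-value sets the difference against the scatter of genotype differences across conditions, since no condition had a repeat. Most of the residual degrees of freedom behind that scatter come from the early conditions, before most members rose. At 8 h of LPS both were at least 2-fold higher in RelA-TA-KI cells, and no other member was (4.54% of all genes).

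With LPS the late difference passed the test for 6 members: Cmpk2, Rsad2, Oasl1 and Trim25 were higher in RelA-TA-KI cells and Phf11d and Ifitm3 lower, against 7.54% and 8.33% of all genes. The median of the 45 was 0.03. With Poly(I:C) 16 members were higher and none lower, against 9.03% and 5.54% of all genes, with a median of 0.39 and 44 of 45 positive. In the order of size these were Rsad2, Cmpk2, Oas1g, Isg20, Slfn5, Oas2, Ifit2, Oas1a, Oasl1, Usp18, Slfn8, Lgals9, Mx2, Ifi204, Trim25 and Trim30a. The late difference with LPS minus that with Poly(I:C) was negative for 44 of 45, with a median of -0.32, but called no member (edgeR, 19 at an unadjusted p below 0.05 with no share of all genes given for it, 1 in DESeq2), against 1.24% of all genes called lower. When only the 3 h and 8 h libraries were fitted, none of these calls remained. In that fit the adjusted p of Rsad2 was 0.0936 with LPS and 0.102 with Poly(I:C).

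Scaling bears on the Poly(I:C) result. The median genotype ratio at 8 h of Poly(I:C) was 0.45 on the log2 scale with TMM factors, positive for 44 genes, and 0.15 with library totals alone, positive for 30. By the 2-fold rule 3 members, Rsad2, Cmpk2 and Ifi27l2a, were higher in RelA-TA-KI cells with TMM factors and 0 without (5.62% of all genes with them). Fibroblast markers moved with it: 8 of 10 were called higher in RelA-TA-KI cells late after Poly(I:C), with a median of 0.63, and with LPS 4 were higher and 1 lower; their part in the result was not tested. Of the 15 macrophage markers 2 were higher and 1 lower late after Poly(I:C), and 5 were lower with LPS. Summed fibroblast markers ran from 52118 to 86845 CPM in RelA-TA-KI and from 45987 to 63804 CPM in WT libraries.

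**Figure D5:**
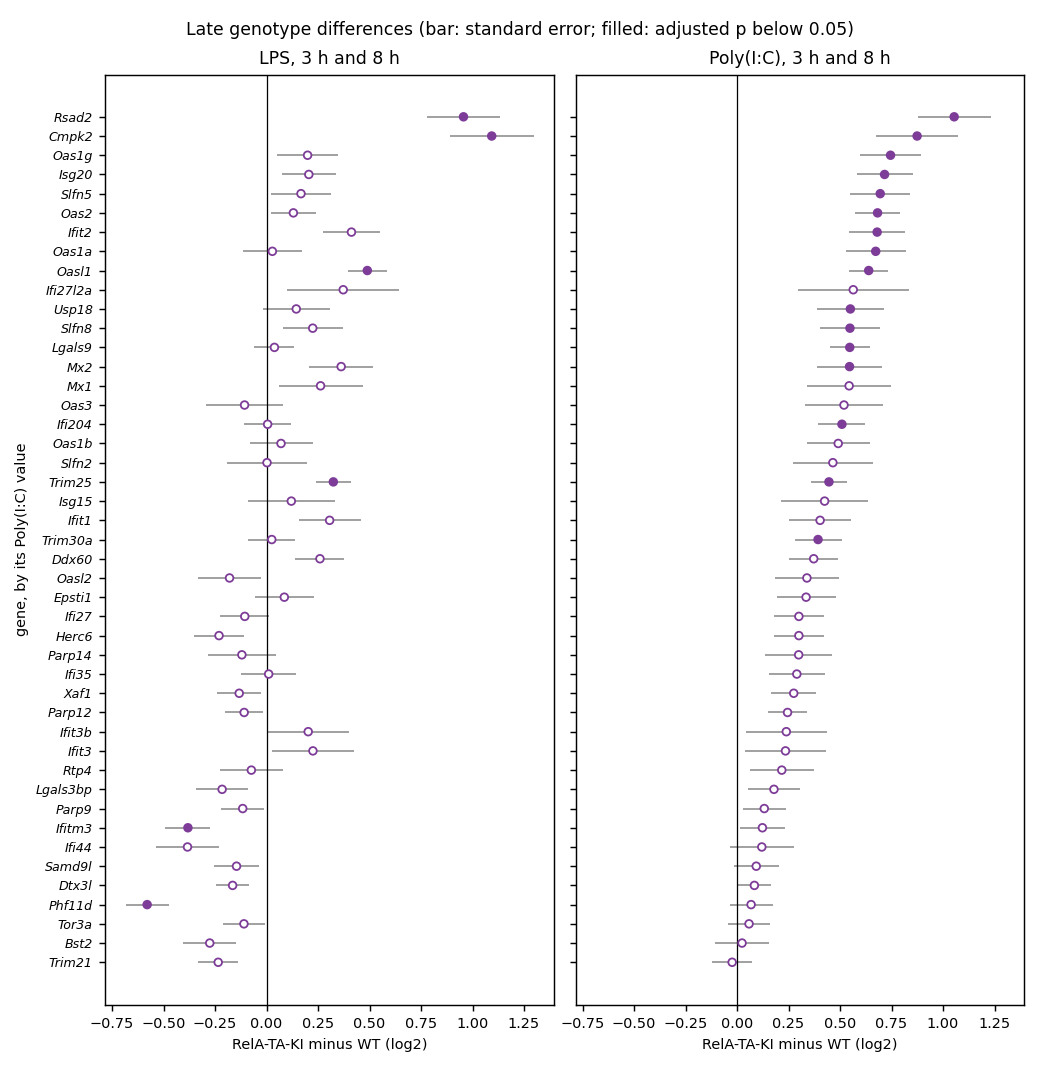
The x axis gives the late genotype difference (RelA-TA-KI minus WT, log2, 3 h and 8 h together) with its standard error for the 45 genes, for LPS and for Poly(I:C); filled points have an adjusted p below 0.05. With LPS the points scatter about 0, and with Poly(I:C) 44 of 45 lie right of it.

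Among the OAS genes 4 of 7 were higher in RelA-TA-KI cells late after Poly(I:C) (median log2 0.64) and Oasl1 alone after LPS. In RelA-TA-KI cells Oasl1 had 2.15 CPM untreated, 2.23, 2.99, 346 and 484 CPM with LPS and 1.68, 2.47, 252 and 461 CPM with Poly(I:C). In WT cells Oasl1 had 1.97 CPM untreated, 1.56, 2.22, 277 and 307 CPM with LPS and 1.99, 1.66, 169 and 282 CPM with Poly(I:C). Oasl1 was also the single member higher in RelA-TA-KI cells over all 9 conditions (log2 0.50, SE 0.08, adjusted p = 0.001; 7.66% of all genes). In RelA-TA-KI cells Oas2 had 8.22 CPM untreated, 9.54, 6.70, 61.7 and 199 CPM with LPS and 9.08, 7.97, 69.0 and 178 CPM with Poly(I:C). In WT cells Oas2 had 10.7 CPM untreated, 13.4, 11.2, 57.4 and 178 CPM with LPS and 9.15, 12.7, 41.4 and 114 CPM with Poly(I:C). Oas2 was lower in RelA-TA-KI cells early and higher late after Poly(I:C) (log2 0.68, SE 0.11, adjusted p = 0.0028). In RelA-TA-KI cells Oas1g had 1.57 CPM untreated, 1.70, 1.75, 21.7 and 72.4 CPM with LPS and 1.88, 1.01, 19.2 and 71.3 CPM with Poly(I:C). In WT cells Oas1g had 2.24 CPM untreated, 2.18, 2.69, 17.3 and 66.8 CPM with LPS and 1.29, 2.42, 11.1 and 43.5 CPM with Poly(I:C). Oas1g was also higher late after Poly(I:C) (log2 0.74, SE 0.15, adjusted p = 0.0085). In RelA-TA-KI cells Oasl2 had 62.5 CPM untreated, 77.7, 64.5, 718 and 1259.5 CPM with LPS and 69.9, 56.6, 632 and 1171 CPM with Poly(I:C). In WT cells Oasl2 had 97.7 CPM untreated, 79.0, 87.9, 829 and 1398 CPM with LPS and 61.4, 74.9, 458 and 1009 CPM with Poly(I:C). Oasl2 did not pass the late test with either agent.

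In RelA-TA-KI cells Isg20 had 2.35 CPM untreated, 2.01, 0.927, 54.9 and 163 CPM with LPS and 1.97, 1.91, 40.0 and 164 CPM with Poly(I:C). In WT cells Isg20 had 2.51 CPM untreated, 2.70, 2.45, 54.2 and 127 CPM with LPS and 1.89, 2.29, 27.4 and 91.4 CPM with Poly(I:C). Isg20 was higher in RelA-TA-KI cells late after Poly(I:C) (log2 0.72, SE 0.14, adjusted p = 0.0063). In RelA-TA-KI cells Slfn5 had 37.2 CPM untreated, 42.3, 42.5, 830.0 and 1336 CPM with LPS and 39.9, 37.5, 575 and 1109 CPM with Poly(I:C). In WT cells Slfn5 had 43.5 CPM untreated, 53.0, 61.9, 839 and 1048 CPM with LPS and 48.2, 71.9, 386 and 632 CPM with Poly(I:C). Slfn5 was too (log2 0.69, SE 0.15, adjusted p = 0.011), and it was lower in RelA-TA-KI cells in the early libraries. In RelA-TA-KI cells Slfn2 had 40.3 CPM untreated, 75.7, 137, 562 and 1315 CPM with LPS and 47.2, 69.4, 354 and 1064 CPM with Poly(I:C). In WT cells Slfn2 had 50.6 CPM untreated, 122, 243, 667 and 1106 CPM with LPS and 52.0, 121, 331 and 601 CPM with Poly(I:C). Slfn2 was induced within 1 h in WT cells with both agents, at least 2-fold, and at 1 h of LPS in RelA-TA-KI cells. In RelA-TA-KI cells Ifit1 had 84.0 CPM untreated, 106, 128, 8469.6 and 4729 CPM with LPS and 102, 79.9, 6131 and 4074 CPM with Poly(I:C). In WT cells Ifit1 had 132 CPM untreated, 116, 149, 6997 and 3738 CPM with LPS and 88.3, 105, 4259 and 3356 CPM with Poly(I:C). Ifit1 peaked at 3 h in all series, and Ifit2 at 8 h. In RelA-TA-KI cells Ifit2 had 70.5 CPM untreated, 75.2, 89.3, 7488 and 15832 CPM with LPS and 75.6, 78.9, 5215 and 13691 CPM with Poly(I:C). In WT cells Ifit2 had 80.1 CPM untreated, 79.5, 92.9, 6893 and 9702 CPM with LPS and 82.2, 90.1, 3868 and 7189 CPM with Poly(I:C). The late difference of Ifit2 was called with Poly(I:C) (log2 0.68, SE 0.14, adjusted p = 0.0085) and not with LPS (log2 0.41, SE 0.14, adjusted p = 0.066).

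In RelA-TA-KI cells Trim25 had 106 CPM untreated, 107, 119, 1051 and 612 CPM with LPS and 111, 101, 831 and 558 CPM with Poly(I:C). In WT cells Trim25 had 113 CPM untreated, 112, 112, 918 and 446 CPM with LPS and 106, 113, 612 and 408 CPM with Poly(I:C). Trim25 was higher in RelA-TA-KI cells late with LPS (log2 0.32, SE 0.09, adjusted p = 0.026) and Poly(I:C) (log2 0.45, SE 0.09, adjusted p = 0.0067). In RelA-TA-KI cells Phf11d had 8.90 CPM untreated, 10.4, 11.3, 135 and 364 CPM with LPS and 9.87, 8.42, 112 and 384 CPM with Poly(I:C). In WT cells Phf11d had 15.9 CPM untreated, 16.5, 19.6, 222 and 497 CPM with LPS and 11.8, 12.6, 115 and 342 CPM with Poly(I:C). Phf11d was lower in RelA-TA-KI cells with LPS (log2 -0.58, SE 0.10, adjusted p = 0.0034) and over all 9 conditions (log2 -0.43, SE 0.11, adjusted p = 0.017); Bst2 and Trim21 were also lower over the 9 (log2 -0.27 and -0.19; 8.21% of all genes). In RelA-TA-KI cells Ifitm3 had 192 CPM untreated, 229, 217, 518 and 959 CPM with LPS and 198, 188, 381 and 944 CPM with Poly(I:C). In WT cells Ifitm3 had 236 CPM untreated, 212, 249, 649.7 and 1295 CPM with LPS and 188, 184, 384 and 791 CPM with Poly(I:C). Ifitm3 was lower in RelA-TA-KI cells late with LPS (log2 -0.38, SE 0.11, adjusted p = 0.036) and not called with Poly(I:C) (log2 0.12, SE 0.11, adjusted p = 0.5). In RelA-TA-KI cells Herc6 had 18.3 CPM untreated, 20.7, 18.4, 348 and 792 CPM with LPS and 18.4, 17.6, 214 and 749.7 CPM with Poly(I:C). In WT cells Herc6 had 25.1 CPM untreated, 23.2, 27.3, 450.1 and 843 CPM with LPS and 18.8, 19.1, 197 and 539 CPM with Poly(I:C). Herc6 did not pass the late test with either agent (log2 -0.23, SE 0.12, adjusted p = 0.24 with LPS).

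None of the 4 genes called for their TNF response at 3 h passed the late test with LPS or Poly(I:C). In RelA-TA-KI cells Trim21 had 21.1 CPM untreated, 20.5, 17.7, 440.1 and 316 CPM with LPS and 21.1, 17.7, 404 and 268 CPM with Poly(I:C). In WT cells Trim21 had 26.7 CPM untreated, 24.0, 24.1, 538 and 357 CPM with LPS and 20.6, 21.8, 373 and 301 CPM with Poly(I:C). Trim21 levels at 3 h were within 1.5 times of each other. In RelA-TA-KI cells Dtx3l had 60.0 CPM untreated, 56.7, 51.4, 1053 and 911 CPM with LPS and 54.4, 50.6, 952 and 844 CPM with Poly(I:C). In WT cells Dtx3l had 66.9 CPM untreated, 63.8, 68.1, 1242 and 968 CPM with LPS and 60.4, 60.5, 886 and 807 CPM with Poly(I:C). The early level of Dtx3l was lower in RelA-TA-KI cells (log2 -0.23, SE 0.05, adjusted p = 0.019). In RelA-TA-KI cells Parp9 had 57.3 CPM untreated, 62.7, 52.8, 604 and 692 CPM with LPS and 57.6, 46.9, 488 and 617 CPM with Poly(I:C). In WT cells Parp9 had 72.8 CPM untreated, 66.3, 70.3, 684 and 716 CPM with LPS and 56.0, 60.4, 469 and 535 CPM with Poly(I:C). Parp9 stood within 1.5 times between genotypes at 3 and 8 h. In RelA-TA-KI cells Samd9l had 114 CPM untreated, 118, 123, 1251 and 1873 CPM with LPS and 119.5, 107, 1027 and 1630.3 CPM with Poly(I:C). In WT cells Samd9l had 134 CPM untreated, 131, 151, 1515 and 1889 CPM with LPS and 108, 126, 1051 and 1402 CPM with Poly(I:C). Samd9l did as well. The TNF and LPS tables come from separate series of libraries, so their levels were not tested against each other.

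In RelA-TA-KI cells Parp14 had 59.4 CPM untreated, 62.2, 74.0, 2232 and 2180.3 CPM with LPS and 64.3, 51.5, 1829 and 1972 CPM with Poly(I:C). In WT cells Parp14 had 67.4 CPM untreated, 80.2, 112, 2634 and 2178 CPM with LPS and 64.9, 98.9, 1566 and 1520.4 CPM with Poly(I:C). Parp14 was lower in RelA-TA-KI cells before the wave (log2 -0.42, SE 0.11, adjusted p = 0.034) and not called after it. In RelA-TA-KI cells Trim30a had 47.0 CPM untreated, 56.8, 47.2, 359.5 and 784 CPM with LPS and 52.4, 46.9, 273 and 759 CPM with Poly(I:C). In WT cells Trim30a had 57.4 CPM untreated, 48.0, 53.7, 386 and 706 CPM with LPS and 49.4, 53.3, 214 and 562 CPM with Poly(I:C). Trim30a was higher late after Poly(I:C) (log2 0.39, SE 0.11, adjusted p = 0.043). In RelA-TA-KI cells Mx2 had 5.28 CPM untreated, 7.95, 8.14, 374 and 379 CPM with LPS and 5.53, 6.17, 368 and 314 CPM with Poly(I:C). In WT cells Mx2 had 8.51 CPM untreated, 7.05, 8.76, 341 and 249.9 CPM with LPS and 3.88, 7.52, 219.6 and 248 CPM with Poly(I:C). Mx2 was higher there too (log2 0.55, SE 0.16, adjusted p = 0.041). In RelA-TA-KI cells Lgals3bp had 190.4 CPM untreated, 232, 218, 495 and 1167 CPM with LPS and 214, 218, 387 and 1181 CPM with Poly(I:C). In WT cells Lgals3bp had 276 CPM untreated, 248, 255, 547 and 1419 CPM with LPS and 204, 220.5, 374 and 956 CPM with Poly(I:C). Lgals3bp climbed between 3 and 8 h without a late genotype call. In RelA-TA-KI cells Tor3a had 55.9 CPM untreated, 54.0, 54.0, 536 and 989 CPM with LPS and 60.5, 55.1, 470.5 and 929 CPM with Poly(I:C). In WT cells Tor3a had 71.4 CPM untreated, 62.8, 69.7, 618 and 998 CPM with LPS and 60.2, 68.3, 498 and 811 CPM with Poly(I:C). Tor3a did not pass the late test with either agent. In RelA-TA-KI cells Ifi27 had 66.3 CPM untreated, 70.6, 70.4, 77.2 and 53.7 CPM with LPS and 66.3, 73.8, 73.0 and 49.3 CPM with Poly(I:C). In WT cells Ifi27 had 82.9 CPM untreated, 79.5, 78.5, 91.2 and 51.7 CPM with LPS and 70.7, 73.0, 68.1 and 33.8 CPM with Poly(I:C). Ifi27 was the exception to the programme: at 8 h it was below untreated in all 4 series, at least 2-fold in WT cells with Poly(I:C) (log2 -1.29; 6.14% of all genes). Ifi27l2a, its neighbour, was at least 2-fold lower in RelA-TA-KI than in WT cells when untreated, at 12.6 CPM against 29.5 CPM in WT (0.635% of all genes).

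In the early conditions together (untreated, 0.5 h and 1 h), 12 members were lower in RelA-TA-KI cells and none higher, against 6.51% and 5.36% of all genes, with a median of -0.24. Macrophage markers moved with it: 8 of 15 were called lower in RelA-TA-KI cells and none higher, with a median of -0.26, and their sum was 3458 to 4145 CPM in the 5 RelA-TA-KI libraries and 4269.8 to 5699.5 CPM in the 5 WT libraries. Of the 10 fibroblast markers 4 were higher. In the TNF table the untreated difference ran the other way for both the members (median 0.52) and the macrophage markers (median 0.57). The part of these markers in either value was not tested. The largest early differences were those of Ifi27l2a (log2 -0.79, SE 0.18, adjusted p = 0.015), Phf11d and Slfn2 (log2 -0.57, SE 0.13, adjusted p = 0.015).

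Ifnb1, at 0 or 1 count in the TNF libraries, was strongly induced here. In RelA-TA-KI cells Ifnb1 had 0 CPM untreated, 0.212, 21.5, 73.4 and 3.83 CPM with LPS and 0.0987, 6.96, 25.8 and 75.5 CPM with Poly(I:C). In WT cells Ifnb1 had 0 CPM untreated, 0.415, 13.0, 16.2 and 2.92 CPM with LPS and 0.0995, 6.37, 4.84 and 32.4 CPM with Poly(I:C). With LPS it peaked at 3 h in both genotypes, and with Poly(I:C) it was highest at 8 h in both. It was higher in RelA-TA-KI cells late with LPS (log2 1.87, SE 0.36, adjusted p = 0.0065) and with Poly(I:C) (log2 1.63, SE 0.29, adjusted p = 0.0054). Of the 13 interferon signalling genes, Ifnb1 and Socs1, an inhibitor of Jak kinases, were higher in RelA-TA-KI cells late after LPS, and the receptor genes Ifnar1 and Ifnar2 were lower (log2 -0.68 and -0.98). After Poly(I:C), Ifnb1 and Irf7 were higher and none was lower. Irf1 lagged: at 1 h of LPS it had 39.7 CPM in RelA-TA-KI cells, against 745 CPM in WT cells, and at 3 h 725 CPM in RelA-TA-KI cells, against 892 CPM in WT cells. Of the 11 RNA sensors and adaptors, Ifih1, which encodes the sensor MDA5, was higher and Tbk1 and Traf3 were lower late after LPS, and Ifih1 and Tlr3 were higher and Traf3 lower late after Poly(I:C). Ifih1 had 2124 CPM at 8 h of LPS in RelA-TA-KI cells, against 1420.3 CPM in WT cells.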

How the data were processed

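The authors deposited unnormalized read counts for each gene, in 1 table of 20 libraries for TNF and 1 of 18 libraries for LPS and Poly(I:C). Per the submitters' processing notes, the authors used cutadapt 1.9.1, STAR, featureCounts 1.4.6 and DESeq2 with mm10. Per the labels' protocols, libraries were stranded, poly(A)-selected and read single-end over 50 bases. Annotation release, strand setting and the handling of reads with several matches are not given in the sources used here. All per-sample columns were used (0 left out), and 45143 identifiers were given a symbol.

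The TNF table was fitted with the edgeR 4.0.16 quasi-likelihood test in R 4.3.3: TMM, filterByExpr, 1 mean for each of 10 groups (10 residual degrees of freedom), p-values adjusted over all genes tested by Benjamini and Hochberg, threshold 0.05. Standard errors (SE) come from the log2 change and its F statistic. The other table was fitted with condition as a covariate and genotype terms for early (5 conditions), late LPS and late Poly(I:C) libraries (6 residual degrees of freedom), or 1 genotype term over 9 conditions (8). Ratios of single libraries used a prior count of 2. Biological coefficients of variation were 10.2% and 12.7%. Alternatives were DESeq2 1.42.0, other size factors, no filter, fewer groups, a replicate block, another baseline and leaving out each replicate.

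Same-numbered libraries deviated together in 20 of 20 pairs of groups of 1 genotype (correlations 0.161 to 0.529), so the numbers were taken to pair samples within a genotype. The scripts recovered known changes in simulated counts, which were drawn independently for each library. Those counts held no deviation shared by same-numbered libraries, so the recovery does not cover that feature of these data.

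The members and lists were chosen with earlier results of these data known. Values in every library were given for the member with most counts in each role, the members called for a difference of responses, up to 6 called late for each agent, the 3 largest and 3 smallest called WT rises at 8 h, and members moving against the rest. A gene of the interferon signalling list is not reported here. Shared sequence was counted in windows of 50 bases, the read length.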

Additional observations from a re-analysis of the deposited data

Results flagged for a closer look

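The TNF response differed between the genotypes, by the test of the difference itself without a replicate block, for 4 genes at 3 h. The RelA-TA-KI response minus the WT response was -2.20 for Dtx3l, -2.11 for Parp9, -2.00 for Trim21 and -1.20 for Samd9l on the log2 scale. Trim21 is the one of these whose call held in all 15 alternatives, against 12 of 15 for Dtx3l and Samd9l and 7 of 15 for Parp9.

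At 8 h it differed for 7 genes in the same fit. The values were -1.98 for Herc6, -1.56 for Parp9, -1.53 for Ifit2, -1.49 for Dtx3l, -1.25 for Trim21, -0.96 for Samd9l and -0.73 for Ifitm3. The calls of Herc6 and Samd9l held in 13 of 15 alternatives, that of Ifit2 in 12, that of Trim21 in 11, that of Dtx3l in 8, and those of Parp9 and Ifitm3 in 7. Within replicate numbers 1 and 2 the values at 8 h were -1.94 and -1.95 for Herc6 and -1.25 and -1.24 for Trim21. All 7 were negative within both numbers, but they had been called on these same libraries, so this adds no separate evidence. The labels do not say that the numbers pair the genotypes.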

How the results depend on the processing

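Of 54 calls of single genes, 318 of 442 alternative values kept the call and 124 lost it, none with a change of direction, and of 49 counts of members 185 of 276 alternative values stayed within 1.5 times. The 38 rises at 8 h in WT cells did so in every alternative. Some medians of members that passed no test changed sign: the WT LPS ratio at 1 h was 0.03 and became -0.06 without TMM factors.

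The counts of members in the alternatives below have no share of all genes beside them, except where a share was given above. The number of all genes called may differ between alternatives too, so a larger count alone is not a larger effect. Without the filter on low counts, more members passed. Those lower than untreated became 38 and 17 at 0.5 h (RelA-TA-KI, WT; 0 and 0 with the filter), 28 and 17 at 1 h (0 and 0) and 28 at 3 h in RelA-TA-KI cells (1). Rises became 19 at 3 h in WT cells (9), 36 at 8 h in RelA-TA-KI cells (17) and 41 for the WT step from 3 to 8 h (26). Members higher in RelA-TA-KI cells became 17 untreated and 6 at 1 h (0 and 0), and those lower 23 at 3 h (6) and 27 at 8 h (15). Smaller responses became 3, 1, 25 and 32 at 0.5, 1, 3 and 8 h (0, 0, 4 and 7). Late after LPS, 7 were higher (4), 1 was lower for LPS minus Poly(I:C) (0), and 20 were lower early (12).

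With the replicate block shared by both genotypes the same counts were 33 and 2 lower at 0.5 h, 22 and 4 at 1 h, 29 at 3 h in RelA-TA-KI cells, 16 higher at 3 h in WT cells, 38 at 8 h in RelA-TA-KI cells and 42 for the WT step. That replicate block gave 14 higher untreated, 2 higher at 1 h, 18 lower at 3 h, 27 lower at 8 h, and 1, 20 and 30 smaller responses at 1, 3 and 8 h. Numbers paired the genotypes in 24 of 25 pairs of groups (lowest correlation 0.0056). The replicate block within genotype gave 40 and 9 lower at 0.5 h, 29 and 12 at 1 h, 32 at 3 h, 19 higher at 3 h in WT cells, 38 at 8 h in RelA-TA-KI cells, 42 for the WT step, and 1, 1, 26 and 33 smaller responses.

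Fits of only the groups compared gave 15, 11 and 18 lower at 0.5, 1 and 3 h and 27 higher at 8 h in RelA-TA-KI cells, 4 higher at 3 h in WT cells, 0 for the WT step, 3 and 7 lower in RelA-TA-KI cells at 3 and 8 h, and 1 and 2 smaller responses. With the 0.5 h libraries as baseline, an alternative chosen after seeing the data, 0 fell at 3 h in RelA-TA-KI cells, 14 rose at 3 h in WT cells, 41 rose at 8 h in RelA-TA-KI cells and 4 responses were smaller at 8 h. DESeq2 called 1 lower at 1 h and 2 at 3 h in RelA-TA-KI cells, and 1 for LPS minus Poly(I:C). With the 3 h and 8 h libraries alone, 0 were higher late after LPS, 0 after Poly(I:C) and 0 lower over the conditions (3 over all 9), a fit with fewer samples. Without TMM factors 0 were at least 2-fold higher at 8 h of Poly(I:C) (3 with them). Apart from fewer samples in a fit, the cause was not tested.

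Leaving out each replicate in turn gave 5 to 16 rises at 8 h in RelA-TA-KI cells, 6 to 32 for the RelA-TA-KI step and 7 to 27 for the WT step. Those lower in RelA-TA-KI cells ranged from 3 to 6 at 3 h and 4 to 16 at 8 h, smaller responses from 1 to 5 at 3 h and 0 to 14 at 8 h, and the fall at 3 h in RelA-TA-KI cells was 0 in each.

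The LPS and Poly(I:C) series had 1 library per condition, so no replicate was left out and no paired fit made there. With 2 libraries per group the TNF tests miss small differences, and members under 5 CPM carry the widest errors.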
